A study of Danio rerio with 5 samples.

Results

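Embryos lacking Dicer that received a miR-430 precursor built to be cut by Argonaute 2 (the trimmable Ago2 hairpin) were compared with uninjected embryos lacking Dicer. The comparison uses 2 of the 5 libraries of the study, chosen by their labels, and covers the 14097 of 26158 genes in the tables whose mean level over all 5 libraries was at least 1 CPM (counts scaled to the size of each library). The hairpin library came from MZdicer embryos, which carry hu896/hu896 and have neither maternal nor zygotic Dicer, given 1 nl of a 25 µM stock of the hairpin when they were a single cell. The MZdicer library came from embryos of that genotype with no treatment. Libraries of MZdicer embryos given a miR-430 duplex, of MZdicer embryos given the hairpin with 3 phosphorothioate bonds (3xPS hairpin), at the same volume and stock, and of untreated wild type embryos of the strain TU/AB/TL/TLF supply levels to set beside these. Every library was poly(A)+ RNA from 15 pooled whole embryos at the shield stage, early in gastrulation, 6 h post fertilization.

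Each group has 1 library, so no difference below has a replicate check, no p-value is given, and every statement compares these libraries. No mock-injected library is used here, so an effect of injection cannot be told apart from an effect of miR-430. In RNA of whole embryos, fewer cells of a type and less RNA per cell cannot be told apart either.

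miR-430 is a microRNA family that the zebrafish zygotic genome makes in large amounts soon after its activation, and it is known for speeding the deadenylation and decay of many maternal messenger RNAs. Dicer normally cuts microRNA precursors into duplexes, and embryos without it lack mature miR-430 and gastrulate abnormally. A few short hairpins, of which the precursor of miR-451 is the natural example, are cut by the slicer activity of Argonaute 2 and then trimmed at the 3′ end by an exonuclease, a step that phosphorothioate bonds resist. PARN, the nuclease named in the title of the series, could not be paired with any gene in the tables and was not analysed.

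The libraries held 24123349 counts with the hairpin and 14867084 in MZdicer, and the other 3 held between 24623675 and 26300080. A count of 3 was worth 0.122 CPM with the hairpin and 0.201 CPM in MZdicer. DICER1, the gene mutated in the line, had 20.1 CPM with the hairpin, 22.5 with the duplex, 23.0 with the 3xPS hairpin, 22.7 in MZdicer and 36.5 in wild type. All 4 libraries labelled MZdicer were thus below wild type for it, and hairpin over MZdicer was 0.886 with a 95% counting interval of 0.77 to 1.02. AGO2, the slicer that cuts the hairpin, had 590 CPM with the hairpin and 642 CPM in MZdicer, against 249 CPM in wild type. Of 19 matched genes that mark tissues not yet formed at gastrulation, 2 were measured, and these summed to 5.28 CPM with the hairpin and 5.62 CPM in MZdicer.

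A gene was called when its ratio was at least 2-fold on the scale of log2(CPM + 0.5) and the 95% interval of its 2 counts excluded equality. By this rule 69 genes, 0.489% of those measured, were higher with the hairpin and 280, or 1.99%, were lower, 349 or 2.48% together. Lower genes made up 80.2% of the calls. On that scale the lower differences were also the larger ones. It put 32 genes at least 4-fold lower and 5 at least 8-fold lower, while 0 genes were 4-fold higher. The median ratio was a log2 of -1.31 among lower genes and 1.14 among higher genes. The added 0.5 CPM shrinks the ratios of low genes most. In MZdicer the higher genes had a median of 1.54 CPM and the lower genes 13.7 CPM. By plain CPM ratio MYF5 was 7.43-fold and gpbar1 4.69-fold higher, and sh2d5 was 21.8-fold lower.

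Most genes differed little between the libraries. The median log2 ratio over all measured genes was -0.01, the middle 50% lay between -0.23 and 0.17, and 12647 genes, or 89.7%, were within 1.5-fold. The lower tail was longer than the upper one: 1% of genes lay below a log2 of -1.30 and 1% above 0.83. The counting interval alone excluded equality in 6211 genes, lying above 1 in 2835 (20.1%) and below 1 in 3376 (23.9%), so it is met by far more genes than the 2-fold rule. The interval removed 0 of the 349 genes that passed 2-fold. Values near the threshold show how fine it is. COL6A2, at a log2 ratio of 1.006, was counted as higher and ACOT11, at 0.999, was not. ARHGEF28 at -1.001 was counted as lower and RFX1 at -0.999 was not. At the limit for being measured, ENSDARG00000052046 had a mean of 1.0003 CPM and b4galnt2.2, left out, had 0.9991.

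**Figure D1:**
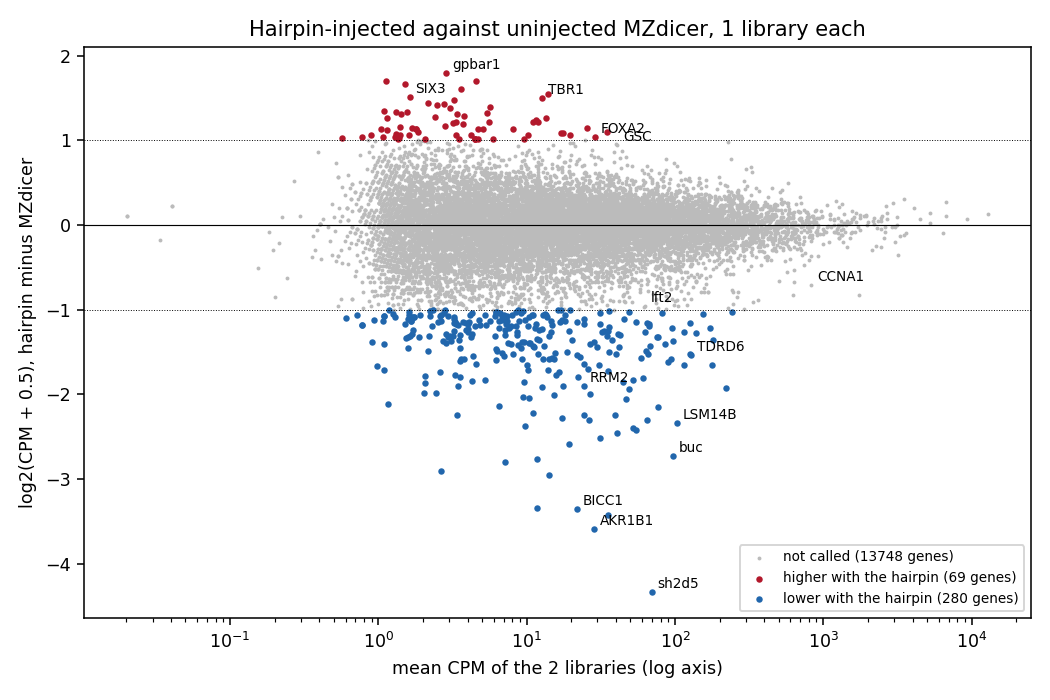
Log2 ratio of hairpin over MZdicer for each of the 14097 measured genes (vertical axis, CPM + 0.5) against the mean level of the hairpin and MZdicer libraries (horizontal axis, log scale, CPM), with the 69 higher and 280 lower genes coloured. The lower genes reach a log2 of -4.34, while no gene lies above 1.79.

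Calls were unevenly spread over expression levels. When genes were cut into 5 equal classes by mean CPM, the lowest class had 29 higher and 80 lower genes, and the highest class had 0 higher and 11 lower. They also varied with transcript length as deposited. Of 5 equal classes by length, the shortest had 29 lower genes and a median log2 ratio of 0.08, and the longest had 78 lower genes and a median of -0.11. Across the 14097 genes, which share both libraries, the Spearman correlation of length with the log2 ratio was -0.21. The part of length in the results below was not tested, and the median length of all measured genes was 2205 bases.

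The lower genes were led by messenger RNAs that were highest in uninjected MZdicer embryos among the 5 libraries. sh2d5, which encodes an SH2-domain adaptor, had 6.09 CPM with the hairpin, 5.37 with the duplex, 5.57 with the 3xPS hairpin, 133 in MZdicer and 2.44 in wild type. It was 21.8-fold lower with the hairpin than in MZdicer (95% counting interval 18.5 to 25.9), the largest fold among the 15 lower genes chosen by the interval bound nearest to equality. mtus1a, whose human relative encodes a microtubule-associated protein, had 5.60 CPM with the hairpin, 3.04 with the duplex, 9.0 with the 3xPS hairpin, 65.1 in MZdicer and 3.11 in wild type. For both genes the 3 injected libraries lay far nearer to wild type than to the uninjected MZdicer library.

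Of these 15 genes, BICC1, an RNA-binding protein of oocytes and early embryos, had 3.49 CPM with the hairpin, 0.71 with the duplex, 12.8 with the 3xPS hairpin, 40.1 in MZdicer and 0.59 in wild type. It was 11.5-fold lower with the hairpin (9.16 to 14.6), and its level kept an order among the injected libraries, lowest with the duplex. LSM14B, a component of oocyte ribonucleoprotein particles, had 33.4 CPM with the hairpin, 8.68 with the duplex, 32.5 with the 3xPS hairpin, 172 in MZdicer and 10.7 in wild type. LSM1, a subunit of the ring that promotes decapping after deadenylation, had 2.64 CPM with the hairpin and 20.9 CPM in MZdicer, a 7.91-fold difference (6.04 to 10.5). LSM14B was 5.14-fold lower (4.75 to 5.57), so these 3 genes were all well beyond the threshold.

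Also among the 15, AKR1B1 (ENSDARG00000045598), aldose reductase, had 3.90 CPM with the hairpin, against 52.6 CPM in MZdicer, and was 13.5-fold lower (10.9 to 16.9). AMT, an enzyme of the glycine cleavage system, was 12.8-fold lower, with 1.70 CPM with the hairpin and 21.9 CPM in MZdicer. GYS1, glycogen synthase, was 6.5-fold lower, and SOD1, the cytosolic superoxide dismutase, was 5.39-fold lower, at 16.2 CPM with the hairpin and 87.5 CPM in MZdicer. In wild type AKR1B1 had 1.38 CPM, AMT 2.12 CPM, GYS1 2.56 CPM and SOD1 9.05 CPM, all nearer to the hairpin library than to MZdicer. Of the rest, the transcription factors CUX1 and hivep3b were 9.04-fold and 8.97-fold lower, the kinase RPS6KA1 5.68-fold and NIBAN2 (ENSDARG00000062970) 5.99-fold. rarres3l had only 6 counts with the hairpin, and its ratio of 20.9-fold lower has a wide interval of 9.16 to 58.7.

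The germ plasm, the maternal RNA and protein granule that specifies germ cells, supplied 3 lower genes. buc, which organizes germ plasm and the oocyte's Balbiani body, had 25.0 CPM with the hairpin, 6.00 with the duplex, 27.0 with the 3xPS hairpin, 169 in MZdicer and 7.36 in wild type, and was 6.76-fold lower than in MZdicer (6.19 to 7.39). TDRD6, a Tudor protein of germ granules, had 65.3 CPM with the hairpin, 21.7 with the duplex, 132 with the 3xPS hairpin, 191 in MZdicer and 15.8 in wild type. TDRD1, a related Tudor protein of the piRNA pathway, had 54.3 CPM with the hairpin, 11.7 with the duplex, 80.9 with the 3xPS hairpin, 141 in MZdicer and 4.76 in wild type. For all 3 genes the hairpin library lay between the duplex library and MZdicer. TDRD6 was 2.93-fold lower (2.76 to 3.12) and TDRD1 2.59-fold lower (2.42 to 2.78) than in MZdicer.

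Among 16 measured germ plasm genes of 22 listed names, 3 were lower (18.8%, against 1.99% of all measured genes) and 0 were higher. The members of this list, as of every list below, were chosen with earlier results of these data known. The median log2 ratio of the 16 genes was -0.40. The log2 ratio was below 0 in 13 of them, and the interval lay below 1 in 12, against 23.9% of all measured genes. Their median length was 2776 bases. The members did not move as one. DDX4 (vasa), the classical germ cell helicase, had 282 CPM with the hairpin and 297 CPM in MZdicer, a ratio of 0.95 (0.915 to 0.987), and NANOS3, needed to maintain germ cells, had a ratio of 1.17 (1.01 to 1.37). DND1, which protects germ cell messenger RNAs from microRNAs, lay near the list median, at a log2 ratio of -0.43. It had 11.5 CPM with the hairpin and 15.6 CPM in MZdicer.

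The 12 names listed as miR-430 targets from the literature gave 9 measured genes. The 2-fold rule was passed in either direction by 2.48% of all measured genes and by 0 of these 9. Their log2 ratios ran from -0.96 to 0.23 with a median of -0.65. The interval lay below 1 in 7 of them and above 1 in 2, against 23.9% and 20.1% of all measured genes. The Nodal antagonist lft2 had 42.3 CPM with the hairpin, 16.8 with the duplex, 37.5 with the 3xPS hairpin, 82.8 in MZdicer and 14.5 in wild type. The Nodal ligand ndr1 (squint) had 20.7 CPM with the hairpin, 5.29 with the duplex, 18.1 with the 3xPS hairpin, 32.8 in MZdicer and 2.40 in wild type. CCNA1, a cyclin with a large maternal store, had 626 CPM with the hairpin, 198 with the duplex, 746 with the 3xPS hairpin, 1027 in MZdicer and 51.6 in wild type. In each of these 3 genes both hairpin libraries lay below MZdicer and above the duplex library and wild type. The chemokine CXCL12 was at 43.2 CPM with the hairpin and 68.9 CPM in MZdicer, and its decoy receptor ACKR3 at 38.0 CPM with the hairpin and 45.7 CPM in MZdicer. The germ granule gene tdrd7a had 42.4 CPM with the hairpin and 73.8 CPM in MZdicer, and DAZL, a germ cell RNA-binding protein, had 16.0 CPM with the hairpin and 23.8 CPM in MZdicer. The 2 genes with the opposite sign were NANOS3, given above, and lft1, at 51.5 CPM with the hairpin and 44.4 CPM in MZdicer.

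**Figure D2:**
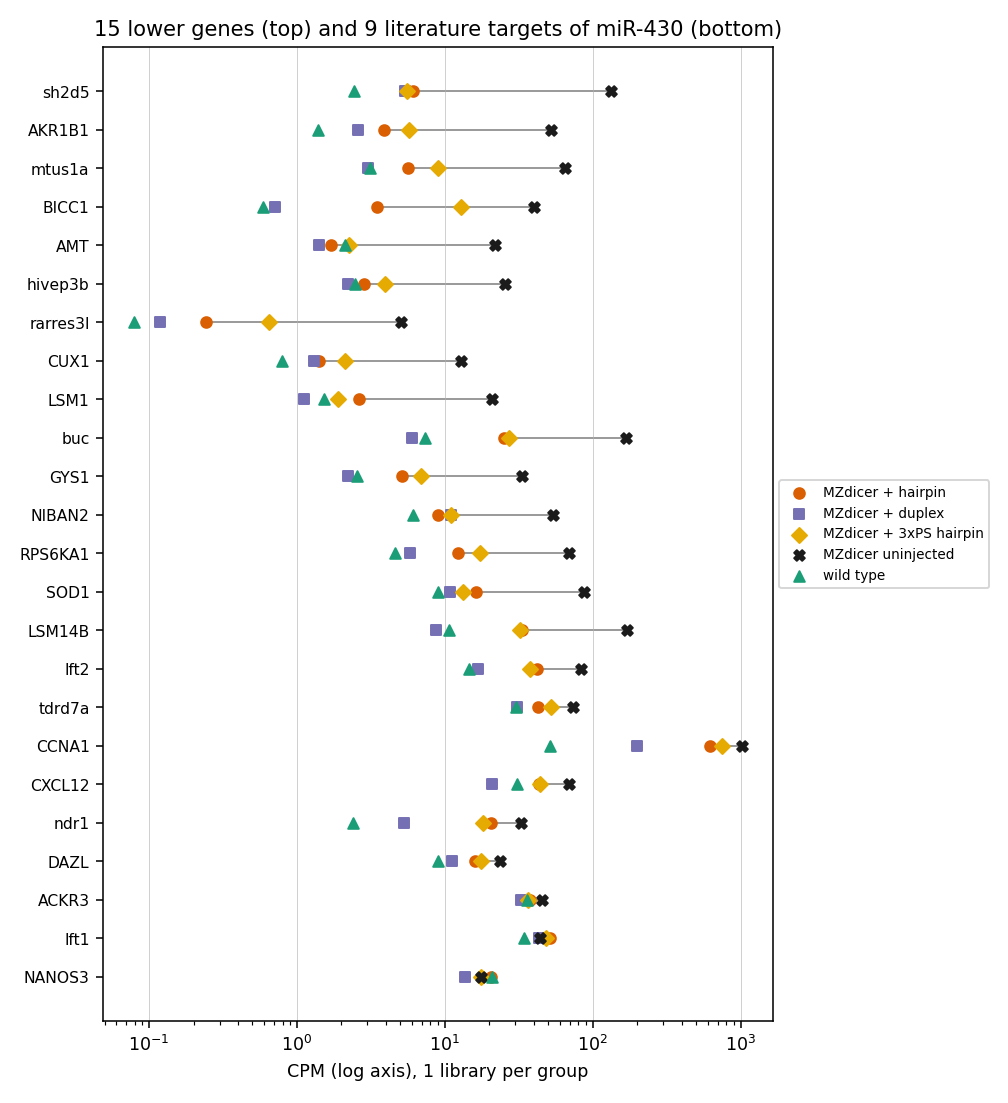
Level (CPM, log axis) in each of the 5 libraries for the 15 named lower genes (top) and the 9 measured literature targets of miR-430 (bottom), 1 point per library and no error since each group has 1 library. For the lower genes the MZdicer point lies apart on the right, as for sh2d5 at 133 CPM, and for the targets the hairpin point lies mostly between the duplex and MZdicer.

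Other maternal and RNA-control genes mostly stayed under the threshold, as did measured genes in general, of which 1.99% were lower. Of 32 measured maternal and oocyte genes 2 were lower, BICC1 and LSM14B, and 0 were higher, with a median log2 ratio of -0.05 that is near that of all genes. Of 34 deadenylation and decapping genes LSM1 was lower and 0 were higher, with a median of -0.13. The deadenylase subunit CNOT7 had 9.50 CPM with the hairpin and 16.1 CPM in MZdicer, and the decapping activator helicase DDX6 had 28.4 CPM with the hairpin and 42.5 CPM in MZdicer, both less than 2-fold apart.

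Of 19 genes of the small RNA machinery 1 was lower and 0 were higher, 17 had a log2 ratio below 0 and the median was -0.22, against 1.99% lower and 51.4% below 0 over all measured genes. The lower gene was AGO1, an Argonaute that carries microRNAs, with 6.90 CPM with the hairpin, 3.95 with the duplex, 14.5 with the 3xPS hairpin, 24.7 in MZdicer and 3.62 in wild type. It was 3.58-fold lower with the hairpin (2.97 to 4.31). The related AGO3 had 50.7 CPM with the hairpin and 79.2 CPM in MZdicer, and TNRC6C, the Argonaute partner that recruits deadenylases, had 24.0 CPM with the hairpin and 36.3 CPM in MZdicer. The machinery genes are long, with a median of 3171 bases, and the part of length was not tested.

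The 69 higher genes had a median of 4.71 CPM with the hairpin and 1.54 CPM in MZdicer. Among the 15 named by the interval bound, MYF5, the myogenic factor first made in presomitic mesoderm, had 1.99 CPM with the hairpin, 3.00 with the duplex, 1.29 with the 3xPS hairpin, 0.267 in MZdicer and 3.70 in wild type. Only 4 counts lay behind the MZdicer value, and the 7.43-fold ratio has an interval of 2.73 to 28.4. gpbar1, a bile acid receptor, had 4.71 CPM with the hairpin and 1.00 CPM in MZdicer (4.69-fold higher, 2.73 to 8.66). These ratios are less exact than those of the lower genes, since the median higher gene had 23 counts in MZdicer and the median lower gene had 205.

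The listed transcription factors of the head and placodes held 5 higher genes. TBR1, a T-box factor, had 19.1 CPM with the hairpin, 12.5 with the duplex, 19.5 with the 3xPS hairpin, 6.42 in MZdicer and 12.0 in wild type, and was 2.98-fold higher than in MZdicer (2.39 to 3.75). SIX3 (ENSDARG00000054879), which specifies the forebrain and eye field, had 2.64 CPM with the hairpin, 5.01 with the duplex, 2.66 with the 3xPS hairpin, 0.602 in MZdicer and 11.2 in wild type. The placode factor six4a had 4.95 CPM with the hairpin, 10.2 with the duplex, 3.47 with the 3xPS hairpin, 1.47 in MZdicer and 16.7 in wild type. MZdicer was the lowest of the 5 libraries for all 3 genes. This SIX3 entry was 4.38-fold higher (2.17 to 10) and six4a 3.37-fold higher (2.13 to 5.57), and for both the hairpin value stayed below wild type. The list's other SIX3 entry (ENSDARG00000058008) was not called, at a log2 ratio of 0.91. It had 2.96 CPM with the hairpin, 1.34 in MZdicer and 0.905 in wild type, so wild type was below both. Of 25 measured anterior neural and placode genes 5 were higher, the other 2 being six4b and TBX3, and 0 were lower. With a pseudocount of 1 CPM six4b and TBX3 did not pass. The median log2 ratio of that list was 0.39, and 20 of the 25 were above 0, against 0.489% of all measured genes called higher and 48.6% above 0. EOMES went the other way without passing the rule, at 113 CPM with the hairpin and 170 CPM in MZdicer, and GBX1 had 9.90 CPM with the hairpin and 13.6 CPM in MZdicer.

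**Figure D3:**
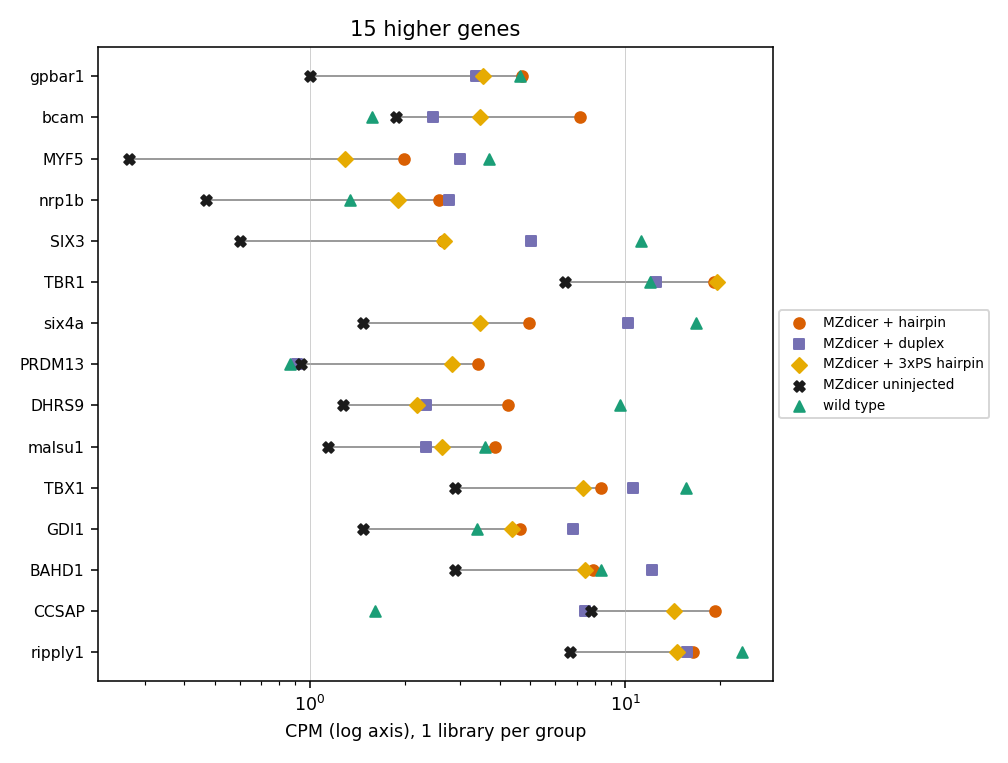
Level (CPM, log axis) in each of the 5 libraries for the 15 named higher genes, 1 point per library, with a line joining the hairpin and MZdicer points. MZdicer is the leftmost point in every row but those of bcam, PRDM13 and CCSAP, and gpbar1 had 4.71 CPM with the hairpin and 1.00 CPM in MZdicer.

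The dorsal organizer, the signalling centre that forms at the shield and patterns the axis, had 16 measured genes of 26 listed names. 4 of them (25%, against 0.489% of all measured genes) were higher and 0 were lower. The list was made with earlier results of these data known, so its shares are not those of an independent list. The median log2 ratio was 0.71. All 16 had a ratio above 1 whose interval also lay above 1, against 20.1% of all measured genes, and under the alternatives run the list's median ranged from 0.63 to 0.74. FOXA2, a forkhead factor of the axial midline and endoderm, had 39.2 CPM with the hairpin, 37.6 with the duplex, 41.2 with the 3xPS hairpin, 18.8 in MZdicer and 23.2 in wild type. TBXT, the T-box factor of notochord and tail, had 13.1 CPM with the hairpin, 19.8 with the duplex, 12.6 with the 3xPS hairpin, 6.22 in MZdicer and 25.6 in wild type. These ratios were 2.09 (1.83 to 2.39) and 2.10 (1.66 to 2.68). The other 2 calls rested on few counts. OTX2 (ENSDARG00000011235) had 2.07 CPM with the hairpin, 0.736 in MZdicer and 6.96 in wild type. SHH (ENSDARG00000038867), the midline morphogen, had 2.72 CPM with the hairpin, 1.00 in MZdicer and 0.551 in wild type. The list's other SHH entry (ENSDARG00000068567) was not called, at a log2 ratio of 0.81. OTX2, TBXT and the called SHH entry no longer passed 2-fold with a pseudocount of 1 CPM.

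More abundant organizer genes differed by less than 2-fold but with narrow intervals. The BMP antagonist chrd (chordin) had 301 CPM with the hairpin, 308 with the duplex, 306 with the 3xPS hairpin, 175 in MZdicer and 418 in wild type, a ratio to MZdicer of 1.71 (1.64 to 1.79). GSC (goosecoid), the homeodomain factor of prechordal mesoderm, had 53.9 CPM with the hairpin, 37.2 with the duplex, 50.2 with the 3xPS hairpin, 27.8 in MZdicer and 37.8 in wild type, a ratio of 1.94 (1.73 to 2.17). The secreted Wnt antagonist frzb had 36.3 CPM with the hairpin and 21.8 CPM in MZdicer. Summed over the 16 genes the level was 1272 CPM with the hairpin, 1106 with the duplex, 1335 with the 3xPS hairpin, 859.2 in MZdicer and 1179 in wild type. MZdicer was thus the lowest library for the sum, as for chrd and GSC. It was not the lowest for foxa3, lhx1a, noto, sebox and SHH (ENSDARG00000038867).

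In presomitic and tail mesoderm 3 of 21 measured genes were higher and 0 were lower, with a median log2 ratio of 0.15, against 0.489% higher and a median of -0.01 over all measured genes. They were MYF5, ripply1 and mespab. ripply1, a repressor that sets somite boundaries, had 16.4 CPM with the hairpin and 6.69 CPM in MZdicer (2.46-fold higher, 1.97 to 3.09). mespab, a segmentation factor, had 13.9 CPM with the hairpin and 6.42 CPM in MZdicer but a log2 ratio of 0.90 in the other deposited count columns, which is under the threshold. The segment-clock gene her1 had 49.6 CPM with the hairpin and 47.7 CPM in MZdicer, and the tail factor tbx16 had 970 CPM with the hairpin and 1008 CPM in MZdicer, so the early mesoderm genes did not differ as a block.

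Calls in the other signalling lists made up 3.33% of Wnt and Fgf genes, 5.56% of BMP and ventral genes and 14.3% of endoderm genes. Over all measured genes the share was 2.48%, and each of those shares rests on 1 gene. Of 30 Wnt and Fgf genes the receptor FZD8 (ENSDARG00000038569) was higher, at 24.1 CPM with the hairpin and 11.2 CPM in MZdicer, and 0 were lower. Of 18 BMP and ventral genes TP63, the epidermal p53 relative, was lower at 6.66 CPM with the hairpin and 16.2 CPM in MZdicer, and 0 were higher. Among 16 Nodal pathway genes 0 were higher or lower, and among 7 endoderm genes FOXA2, already described, was higher and 0 were lower. The median log2 ratios of these lists were 0.14, 0.12, -0.12 and -0.05.

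Markers of the outer tissues were present in both libraries. Of 21 measured genes of the enveloping layer, the embryo's covering epithelium, 0 passed the rule in either direction, with a median log2 ratio of 0.12 and summed levels of 10849 CPM with the hairpin and 9952 CPM in MZdicer. The keratin krt99 had 301 CPM with the hairpin and 152 CPM in MZdicer, a ratio of 1.98 that missed the threshold narrowly. It passed under total-count, upper-quartile and 2-library scaling. krt99 was the extreme member: krt4 had a ratio of 1.06, and evpla, at 0.869, went the other way. The log2 ratio was above 0 in 16 of the 21 genes and below 0 in 5. Of 15 genes of the yolk syncytial layer 0 passed, with a median of 0.36 and sums of 1633 CPM with the hairpin and 1239 CPM in MZdicer. The log2 ratio was above 0 in 13 of the 15, and the interval lay above 1 in 12 and below 1 in 1. Over all measured genes the interval lay above 1 in 20.1%. The yolk syncytial list shares GSC with the organizer. The 16 epiblast genes also held 0 calls, where 2.48% of all measured genes were called. Within that list SOX11 (ENSDARG00000077811) had 255 CPM with the hairpin and 474 CPM in MZdicer, while FOXD3 had 42.1 CPM with the hairpin and 27.0 CPM in MZdicer. The part of these tissue markers in the results was not tested.

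The interferon and p53 lists held 2 lower and 0 higher genes each, or 20% and 8.7% of their measured members. Over all measured genes 1.99% were lower. In the interferon list, of which 10 genes were measured with a median log2 ratio of -0.21, the signal transducer stat2 had 3.33 CPM with the hairpin, 4.03 with the duplex, 4.0 with the 3xPS hairpin, 10.7 in MZdicer and 2.40 in wild type. It was 3.21-fold lower with the hairpin (2.45 to 4.25), and MZdicer was the highest of the 5 libraries. The interferon-induced genes isg15, ifit8 and mxa did not pass. The ratios of isg15, 0.574 (0.351 to 0.937), and ifit8, 0.48 (0.249 to 0.915), lay below 1, while that of mxa was 0.899 (0.629 to 1.29). In the list of 10 the interval lay below 1 in 5 and above 1 in 1, against 23.9% and 20.1% of all measured genes. In the p53 list of 23 genes SESN1, a stress-induced regulator of growth signalling, was 2.72-fold lower at 36.6 CPM with the hairpin and 99.7 CPM in MZdicer. GADD45A was 2.39-fold lower at 2.80 CPM with the hairpin and 6.69 CPM in MZdicer. The median log2 ratio of the p53 list was 0.03, with 13 genes above 0 and 10 below.

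Growth and housekeeping lists had 0 or 1 calls each, where 2.48% of all measured genes were called. The 2.13% called in the cell cycle list was near that share. Of 68 measured cytosolic ribosomal protein genes 0 were called, but 66 had an interval above 1, with a median log2 ratio of 0.24. Over all measured genes the interval lay above 1 in 20.1%. These genes are short, with a median of 743.5 bases, and summed to 17469 CPM with the hairpin, 16571 with the duplex, 14058 with the 3xPS hairpin, 14800 in MZdicer and 20168 in wild type. Mitochondrial ribosomal and respiratory chain genes, 63 and 69 measured, also had 0 calls, with medians of 0.21 and 0.19 and median lengths of 904 and 816 bases. Proteasome subunits had 0 calls among 36 and a median of 0.09. Of 47 cell cycle genes 1 was lower and 0 were higher. That gene, RRM2 (ENSDARG00000078069), a ribonucleotide reductase subunit, had 10 CPM with the hairpin, 0.316 with the duplex, 0.928 with the 3xPS hairpin, 38.7 in MZdicer and 149 in wild type. Its log2 ratio of -1.90 became -0.12 in the other count columns, so the call was lost there. The list's other RRM2 entry (ENSDARG00000020711) was not called, at 790 CPM with the hairpin and 704 CPM in MZdicer.

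Calls made up 0.98% of solute carriers and 7.27% of Fox, Sox, Klf and Hox factors, against 2.48% of all measured genes. They made up 3.23% of adhesion genes and 5.56% of genes often used as references. Solute carriers had 1 higher gene, slc47a1, and 1 lower gene, SLC16A1, among 204. Fox, Sox, Klf and Hox factors had 3 higher genes, FOXA2, foxf2a and foxj1b, and 1 lower gene, foxp1a, among 55. With a pseudocount of 1 CPM foxf2a and foxj1b no longer passed, and foxj1b, at a log2 ratio of 0.91, did not pass in the other count columns. Adhesion genes had 1 higher gene among 31, the immunoglobulin-family adhesion protein bcam, at 7.18 CPM with the hairpin and 1.87 CPM in MZdicer, and 0 lower genes. Among 18 genes often used as references EEF1A1 (ENSDARG00000069951) was lower, with 15 counts with the hairpin and 38 in MZdicer. The far more abundant eef1a1l1 of the same list had 13484 CPM with the hairpin and 12358 CPM in MZdicer, a ratio of 1.09.

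**Figure D4:**
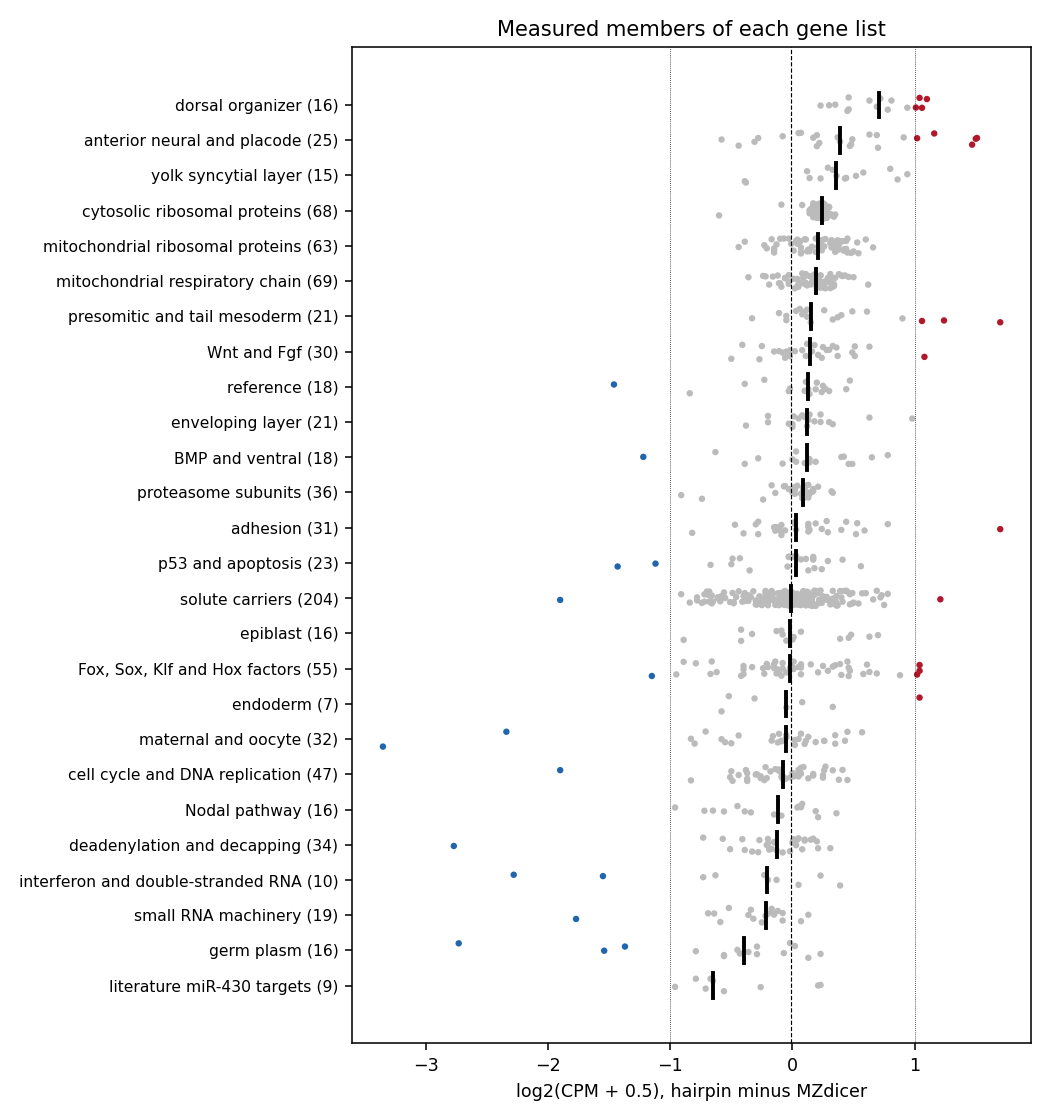
Log2 ratio of hairpin over MZdicer for every measured member of each gene list but that of tissues not yet formed (points, coloured where called), with the list median as a bar and the number measured in brackets. The median of all 14097 genes is -0.01. The dorsal organizer list, with a median of 0.71, and the literature targets, with a median of -0.65, lie farthest from it. The members of the lists were chosen with earlier results of these data known.

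The other 3 libraries allow gene sets that share no library with this comparison. By the same rule 472 genes (3.35% of those measured) were higher in the 3xPS hairpin library than in the duplex library. In these genes hairpin over MZdicer had a median log2 ratio of -0.55, with the middle 50% between -0.92 and -0.27, against -0.01 over all genes. Below 0 were 432 of the 472, or 91.5%, against 51.4% of all genes. Lower with the hairpin were 102 of them, or 21.6%, against the 1.99% of all genes, and 2 were higher. The 102 genes made up 36.4% of the 280 lower genes and included AKR1B1, mtus1a, BICC1, buc, GYS1, RPS6KA1 and LSM14B. The median level of the 472 genes was 16.3 CPM with the hairpin, 6.47 with the duplex, 19.6 with the 3xPS hairpin, 27.1 in MZdicer and 4.17 in wild type. The choice of the set fixes that its duplex level is below its 3xPS level, so only the hairpin, MZdicer and wild type medians are independent of it. Their median length was 2846 bases.

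The opposite set was the 82 genes (0.582%) lower in the 3xPS hairpin library than in the duplex library. Its median log2 ratio of hairpin over MZdicer was 0.16, nearer to that of all genes than the median of the 472 genes was. Above 0 were 54 of 82, or 65.9%, against 48.6% of all genes. Higher with the hairpin were 5, or 6.1%, against 0.489% of all genes, and lower were 3, or 3.66%, against 1.99%. Named among the 5 were six4a, OTX2 and TBX3, described above, and cxxc5b, which was picked out after its values were seen.

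**Figure D5:**
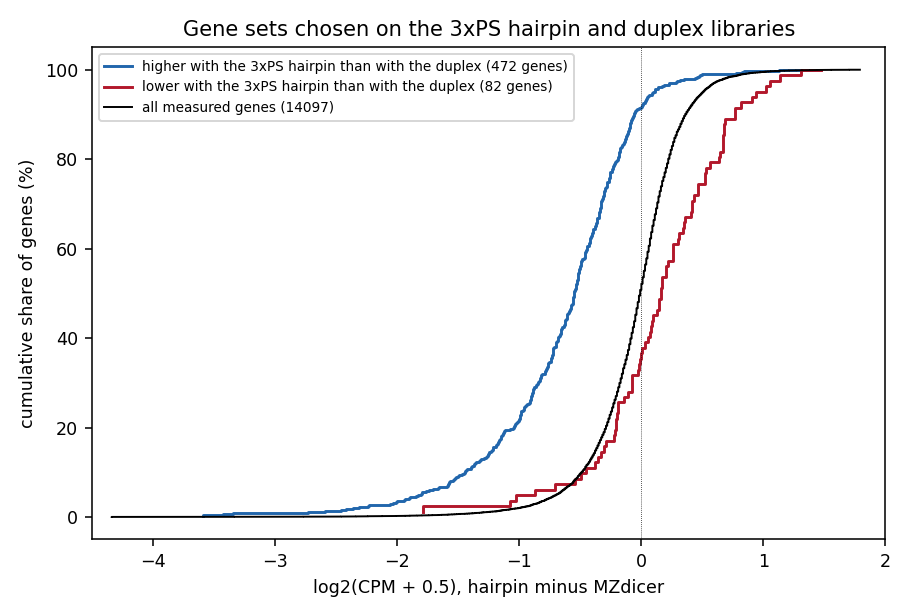
Log2 ratio of hairpin over MZdicer (horizontal axis) against the cumulative share of genes (vertical axis, percent), for the 472 genes higher and the 82 genes lower in the 3xPS hairpin library than in the duplex library and for all 14097 genes. The curve of the 472 genes, with a median of -0.55, lies left of that of all genes, and the curve of the 82 genes, with a median of 0.16, lies right of it over most of its length.

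Sets made against wild type had medians nearer to that of all genes than the 472 genes did. The 2076 genes (14.7%) higher with the 3xPS hairpin than in wild type had a median log2 ratio of hairpin over MZdicer of -0.22. Of them 137 (6.6%) were lower and 13 (0.626%) higher. The 763 genes (5.41%) lower than in wild type had a median of 0.03, with 17 (2.23%) higher and 24 (3.15%) lower. For the duplex against wild type the 1198 higher genes (8.5%) had a median of -0.11. Of those genes, 11 (0.918%) were higher and 34 (2.84%) lower with the hairpin. The 453 lower genes (3.21%) had a median of -0.06, with 9 (1.99%) higher and 23 (5.08%) lower. In each of these sets both shares were above those of all measured genes, 0.489% higher and 1.99% lower.

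Levels in the libraries outside the comparison also show where the called genes lay. The comparison chose these genes on the hairpin and MZdicer values, so only the duplex, 3xPS hairpin and wild type medians are new here. For the 280 lower genes the median level was 4.55 CPM with the hairpin, 3.47 with the duplex, 6.52 with the 3xPS hairpin, 13.7 in MZdicer and 3.23 in wild type. For the 69 higher genes it was 4.71 CPM with the hairpin, 3.35 with the duplex, 3.47 with the 3xPS hairpin, 1.54 in MZdicer and 4.52 in wild type. In both groups of genes all 3 libraries were nearer to the hairpin median than to that of MZdicer. The choice favours this outcome, since genes picked for a gap between hairpin and MZdicer include those where the MZdicer value alone was extreme. It is therefore not independent of the choice, and the same holds for the called genes named above. Over all measured genes the medians lay close together, at 13.9 CPM with the hairpin, 13.3 with the duplex, 14.1 with the 3xPS hairpin, 14.4 in MZdicer and 12.4 in wild type.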

How the data were processed

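Poly(A)+ RNA of whole embryos was sequenced from strand-specific libraries, 1 per group. The tools named are CASAVA 1.8.2 and TopHat2 2.0.8, and the build is Zv9 (danRer7), per the submitters' processing notes. How reads were counted, on which annotation, with or without strand and with what rule for multiple matches is not given in the sources used here, so genes with near-identical copies or overlapping neighbours are uncertain. Per the file headers, each deposited table has a length, 3 count columns and 3 RPKM columns. The values used are the authors' whole-number read counts. The other 2 deposited columns hold estimated counts with fractions and were used, rounded, as alternatives. The authors' RPKM values follow from the counts and lengths and were not used further.

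TMM factors over 5 libraries (0.967 to 1.02) came from edgeR 4.0.16 in R 4.3.3. Log2 ratios were taken after adding 0.5 to each CPM, so a low gene's difference is understated. The fold printed for a single gene is the plain CPM ratio, with nothing added. The 95% intervals are exact conditional (Clopper-Pearson) intervals of the 2 counts. Only counting error is covered, and not fully, because without molecular identifiers several reads can come from 1 molecule. The calling was tested on simulated data. Those counts varied by counting error only, as the intervals assume, so the test cannot show how many calls come from variation between libraries.

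Symbols, known for 18804 of 26158 identifiers, came from a name table. The 27 gene lists were matched by symbol, then by RefSeq synonym, then without a final paralogue letter. The last step and 5 excluded synonyms were added after the tables were seen. The members and lists were chosen with earlier results of these data known. Named genes are the 15 higher and 15 lower genes with the interval bound farthest from equality among those with a gene symbol rather than a clone or locus name, DICER1, AGO2, parn, the literature targets, up to 4 genes per list with the largest ratios and the genes next to each threshold. Other list members given as contrasts, and which of a rule's genes are given in full, were picked after their values were seen. Alternatives were total-count, DESeq2 1.42.0, upper-quartile and 2-library scaling, pseudocounts of 0.1 and 1, no filter, a filter of 5 CPM, the other count columns and a 1.5-fold threshold. The values of 2 list members are not reported here.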

Additional observations from a re-analysis of the deposited data

Results flagged for a closer look

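Of 4101 genes at 0 in the main count column in both the hairpin and the MZdicer library, 98 were kept here. They had a mean of at least 1 CPM in the deposited column that holds all assignments. This mean was taken over the hairpin and MZdicer libraries, not over all 5 as elsewhere. They stand out as signal in data that the comparisons do not use. Among these 98 genes, 0 were higher and 3 were lower with the hairpin than in MZdicer by the same rule applied to that column. In the main column 0.489% of all measured genes were higher and 1.99% lower, so so few calls do not set these genes apart.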

How the results depend on the processing

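No paired analysis was possible because each group has 1 library, and for the same reason no replicate could be left out. The counts of 69 higher and 280 lower genes moved most with the threshold and the treatment of low genes. Higher genes numbered 131 with a pseudocount of 0.1, 40 with a pseudocount of 1, 27 with a filter of 5 CPM and 421 at 1.5-fold. Lower genes numbered 381 with a pseudocount of 0.1 and 227 with a pseudocount of 1. They numbered 173 with the filter of 5 CPM and 985 at 1.5-fold. With no filter there were 83 higher and 336 lower genes. The median log2 ratio of all genes was 0.01 with total counts, 0.02 with upper-quartile factors, 0.01 with TMM over 2 libraries and -0.00 with the filter of 5 CPM. In genes higher in 3xPS than in wild type it was -0.18 with total counts. Lower genes made up 77.6% to 80.6% of calls under the 5 scalings, a range that does not cover the other alternatives. Of 132 named genes, 54 were called. Under at least 1 alternative 10 of these lost the call, 5 named genes gained one and 0 changed sign while called. The filter of 5 CPM kept 98 named genes, and those it left out were not counted as losing a call. The cause of the changes was not tested. Besides that of all genes, the medians of epiblast genes, solute carriers and the Fox, Sox, Klf and Hox factors changed sign between alternatives, all within 0.06 of 0. Depth limits the higher genes, of which the median one had 23 counts in MZdicer, the library with the smallest total.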
